A study of Oryctolagus cuniculus with 16 samples.

Results

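Immediate early genes, Krüppel-like factors (KLFs) and their feedback genes were examined in the intima and media of rabbit basilar arteries 24 h after flow was raised. The group was set by gene symbol: every symbol that began with FOS or ZFP36, JUN and its B and D forms, EGR1 to EGR4, ATF3, NR4A1 to NR4A3, symbols that began with IER2 to IER5, numbered KLF and DUSP symbols, BTG1 to BTG3, and MYC. Of 13788 named genes, 53 matched, and the 50 with a count in at least 1 library were kept, out of 11925 named genes with a count. The 3 others, EGR4, DUSP21 and KLF17, had no count in any library. By class these were 5 AP-1 genes (FOS, FOSB, FOSL1, FOSL2 and JUN), ATF3, 3 EGR, 3 NR4A, IER3, MYC, 3 BTG, 3 ZFP36, 12 KLF genes, 9 typical mitogen-activated protein kinase (MAPK) phosphatases and 9 other dual-specificity phosphatases (DUSPs). JUNB, JUND, IER2, IER5, KLF2, KLF4, KLF13, KLF16, DUSP3, DUSP8 and DUSP15 were not analysed here.

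The tissue came from 4 female New Zealand white rabbits. In rabbits 5 and 6 both common carotid arteries were tied off, which raises flow through the basilar artery (BA) and the basilar terminus (BT), the bifurcation at its end. Rabbits 3 and 4 had sham surgery and normal flow. Intima, the layer that holds the endothelial cells (ECs), and media, the layer of vascular smooth muscle cells (VSMCs), were cut by laser from frozen sections of both locations. This gave 16 libraries in 8 groups of 2 rabbits, each library pooled from sections of 1 rabbit. The rabbits' ages were not given. The same 4 rabbits supplied all 4 tissues, so that agreement between tissues was not independent support.

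Immediate early genes are switched on within minutes of a stimulus by transcription factors that are already present in the cell, and most of their mRNAs are short-lived. FOS and JUN proteins pair to form AP-1. The EGR and NR4A proteins, ATF3 and MYC are transcription factors too, while ZFP36 proteins destroy AU-rich mRNAs, BTG proteins restrain proliferation, and the MAPK phosphatases switch off the kinases that turn these genes on. In ECs, several of these genes respond to shear stress, and some KLFs hold the quiescent state under steady laminar flow. In VSMCs, immediate early genes accompany injury and the exit from the contractile state.

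Libraries held between 5211886 and 17686105 counts on named genes in the intima and between 2154863 and 11219236 in the media. Levels are given as CPM, counts scaled to library size, here with trimmed mean of M-values (TMM) factors over all 16 libraries. They are not divided by gene length, so they are compared between libraries and not between genes. A count in all 16 libraries was found for 28 of the 50 genes, and the highest count of 5 genes (FOSB, EGR3, KLF14, DUSP9 and DUSP27) was 3 or fewer. Testing required a mean above 1 CPM in 1 or more groups of a comparison. For ligated against sham animals, 35 of the 50 were tested in all 4 tissues, 9 in some and 6 (the 5 above and KLF1) in none. Those that passed only because 1 group was high could hardly be equal between groups.

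Genes listed as markers of other cells differed between ligated and sham libraries. The summed level of 12 leptomeningeal fibroblast markers was lower in ligated than sham libraries in every tissue, without overlap. Sums were 6271 to 14392 CPM in sham and 1933 to 5314 CPM in ligated BA intima, and 8108 to 20571 against 1287 to 2386 CPM in BT intima. Medial sums were 24789 to 29078 against 8211 to 8722 CPM at the BA and 22364 to 29348 against 8896 to 10283 CPM at the BT. All 12 of these genes had fitted changes below 0 in the BT intima (median log2 change of -4.87), of which none passed the test. Of the 12, 2 fell in the BT media (OGN and COL3A1), where 2.35% of all genes were called. In the BA media 4 fell and 1, ALDH1A2, rose (0.807% of all genes were called). DCN, LUM, PDGFRA and DPT were at 0 in some intimal libraries. The sums came mostly from extracellular matrix genes. In the BA media of sham rabbit 3, OGN was at 9449, DCN at 6989, COL3A1 at 6859 and COL1A2 at 3749 CPM. SLC22A6 was at 6.22 CPM and SLC6A13 at 0 CPM there. The sums therefore do not single out leptomeningeal cells. The summed level of 15 macrophage and leukocyte markers was higher in ligated libraries, without overlap, in the BA intima (538 to 551 against 1904 to 2808 CPM) and the BT media (93.8 to 100 against 292 to 522 CPM). Of these, S100A9, a neutrophil and monocyte gene, rose in the BT media (log2 change 7.38, SE 1.01, q = 0.00384), while CD3E was at 0 in 12 libraries. S100A9 was at 0 and 2.26 CPM in sham and 381 and 68.7 CPM in ligated BT media, so its fold change rests on sham levels of few counts. Without S100A9 the other 14 markers summed to 93.8 and 98.2 CPM in sham and 141 and 223 CPM in ligated BT media, still without overlap. In the BA intima they summed to 524 and 223 against 234 and 105 CPM, with overlap and no longer higher in ligated rabbits. In the BT intima they summed to 1135 and 161 CPM in sham and 126 and 65.2 CPM in ligated rabbits, lower without overlap. The microglial and macrophage genes TYROBP (290 and 34 against 0 and 0.0823 CPM) and C1QC (205 and 11.3 against 0 and 0.494 CPM) were among the lower ones. In the BA media the same 14 markers summed to 350 and 283 CPM in sham and 200 and 79.2 CPM in ligated rabbits, also lower without overlap. Hemoglobin HBB2 took 9.66% and 13.2% of the counts of the BA and BT intima of sham rabbit 4. The sums of 13 endothelial markers overlapped between sham and ligated groups in all 4 tissues, and CDH5 was at 0 in 2 medial libraries. Brain parenchymal markers were near 0, at most 18.6 CPM summed over 7 genes. The part of these markers in the results below was not tested, and in bulk tissue fewer cells of a type and less RNA per cell cannot be told apart.

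**Figure D1:**
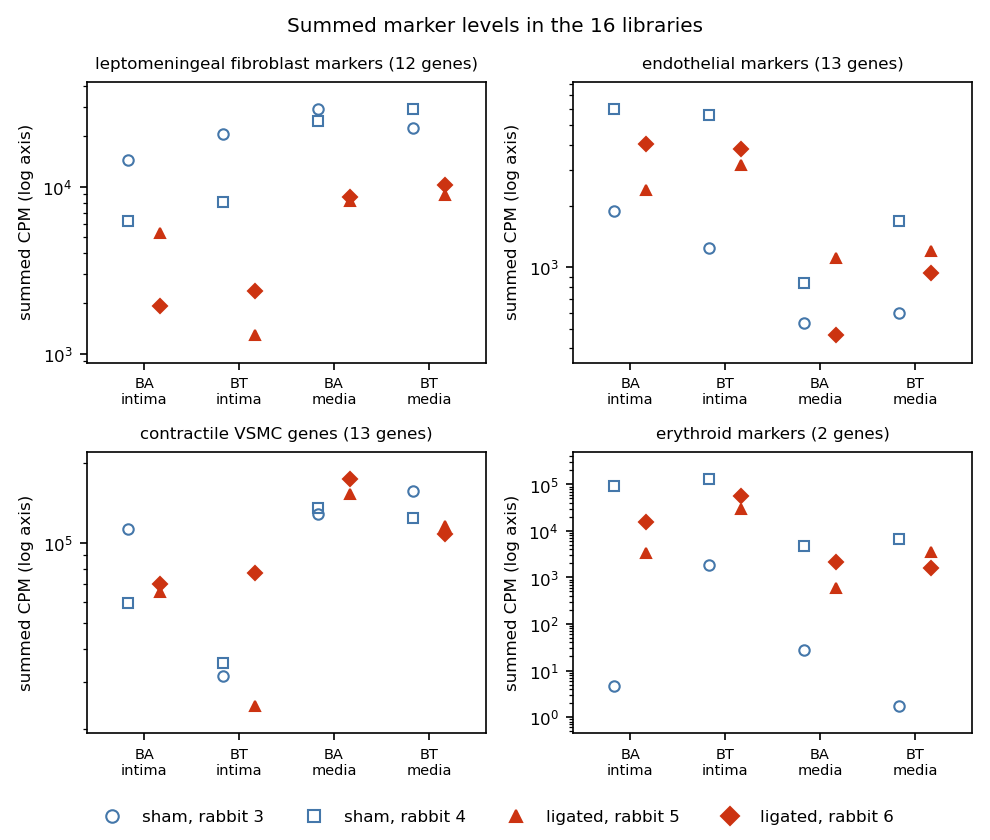
Summed level of 4 marker lists in each of the 16 libraries (CPM, log axis), by tissue, with sham rabbits 3 and 4 as open symbols and ligated rabbits 5 and 6 as filled symbols. The sum of the leptomeningeal list, mostly matrix genes by level, was lower in both ligated rabbits in all 4 tissues. Erythroid markers were highest in the intima of sham rabbit 4.

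Increased flow was followed by lower expression of 2 of the 50 genes, both in the media of the BT: NR4A1, an orphan nuclear receptor, fell to 21.2% and ATF3, a stress-induced member of the ATF/CREB family, to 19.1% of the sham level. Ligated and sham libraries were compared in a separate fit for each tissue, and a call required a q-value below 0.05 after Benjamini-Hochberg adjustment over all genes tested. Where no tool is named, a difference that passed the test did so in edgeR. In the BT media 2 of 40 tested genes were called (2.35% of all genes tested were), both lower. Without rabbit 5 or without rabbit 6 none was called, and the count was 6 without sham rabbit 3 and 3 without sham rabbit 4. In the BA media none of 39 was called by edgeR (0.807% of all genes were), 1 had an unadjusted p below 0.05, and DESeq2 called 1, KLF10. In the BA intima none of 39 was called by edgeR or by DESeq2, and 3 had an unadjusted p below 0.05. In the BT intima edgeR called none of 40, 10 had an unadjusted p below 0.05, and DESeq2 called 7. For all genes the edgeR share was 0% in both intimal tissues.

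At an unadjusted p below 0.05 the genes of this group numbered 3 of 39 for BA intima (7.69%, against 5.95% of all genes tested), 10 of 40 for BT intima (25.0%, against 11.6%), 1 of 39 for BA media (2.56%, against 13.6%) and 9 of 40 for BT media (22.5%, against 16.0%). The 10 in the BT intima were 8 lower and 2 higher in ligated animals (all genes, 680 lower and 399 higher). The 9 in the BT media were 6 lower and 3 higher (all genes, 702 lower and 699 higher). The median log2 change of the tested genes was -0.26 for BA intima (all genes, -0.10), -0.13 for BT intima (-0.13), 0.13 for BA media (-0.15) and 0.46 for BT media (0.03). Positive and negative changes were mixed in each tissue, with 16 of 39, 19 of 40, 21 of 39 and 24 of 40 positive.

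Separation of the 2 ligated from the 2 sham libraries was about as frequent as among all genes. In the BA intima both ligated values lay below both sham values for 10 of 39 genes (25.6%, against 20.0% of all genes) and above for 8 (20.5%, against 15.4%). For the BT intima these were 12 of 40 (30.0%, against 25.6%) and 9 (22.5%, against 20.4%). For the BA media they were 7 of 39 (17.9%, against 26.0%) and 9 (23.1%, against 21.0%), and for the BT media 10 of 40 (25.0%, against 23.1%) and 12 (30.0%, against 25.4%). With groups of 2, lack of overlap in a single gene carries little weight.

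**Figure D2:**
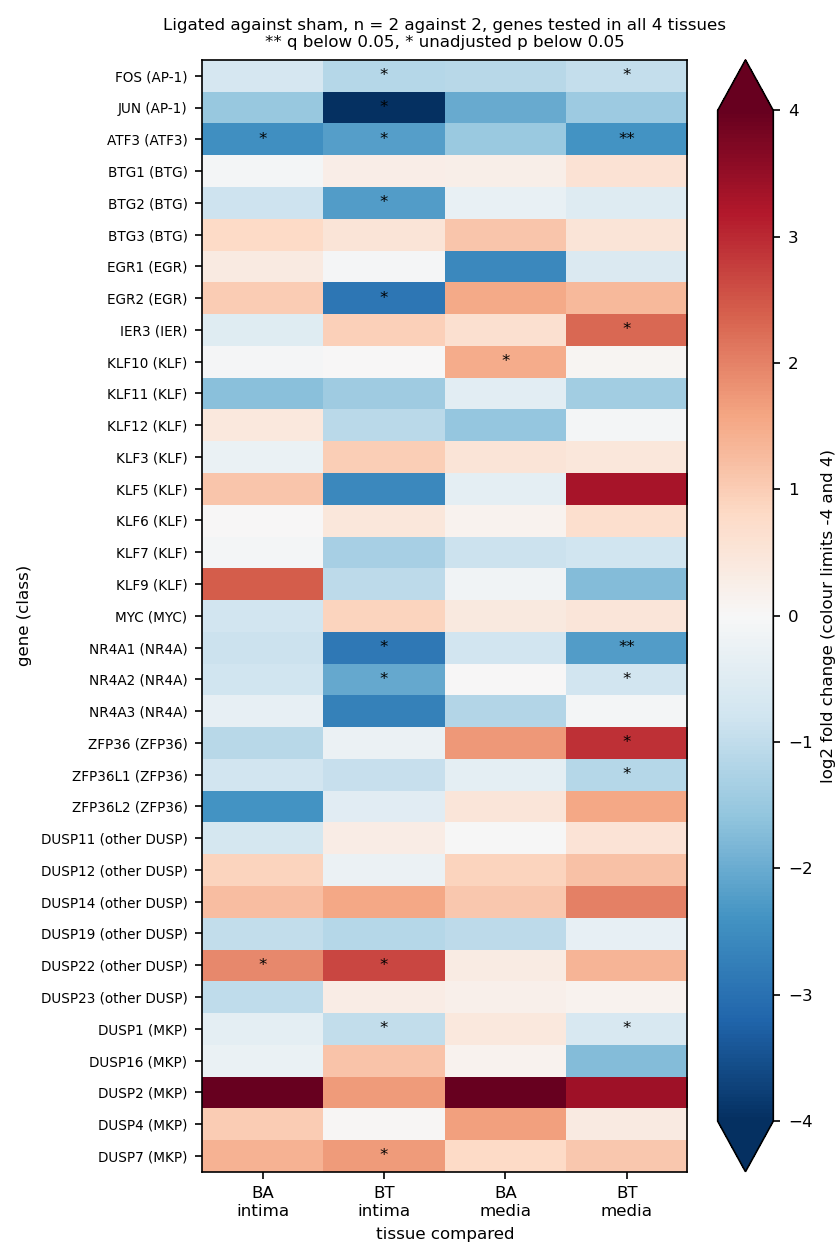
Fitted log2 fold change, ligated against sham (n = 2 against 2), for the 35 genes tested in all 4 tissues, as colour with limits at -4 and 4. Calls at q below 0.05 (2 stars) were NR4A1 and ATF3 in the BT media, and an unadjusted p below 0.05 has 1 star; blue marks lower and red higher expression in ligated animals.

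Among the AP-1 genes, FOS and JUN had counts in every library and both were lower on average in ligated animals in each tissue, although neither passed the test in edgeR in any tissue. FOS, the partner that sets AP-1 activity in many cells, was at 880 and 834 CPM in the BT intima of sham rabbits 3 and 4 and at 495 and 282 CPM in ligated rabbits 5 and 6. This difference did not pass the test (log2 change -1.13, SE 0.44, q = 0.405). FOS in the BT media was at 435 and 196 CPM in sham and 175 and 151 CPM in ligated rabbits, again without overlap (log2 change -0.94, SE 0.39, q = 0.259). Without sham rabbit 4 the latter change was -1.40 and was called (q = 0.0071), and without sham rabbit 3 it was -0.27 (q = 0.765). At the BA the groups overlapped. BA intima had 633 and 133 CPM of FOS in sham and 313 and 171 CPM in ligated rabbits, and BA media had 274 and 50.9 CPM in sham and 126 and 26.5 CPM in ligated rabbits. Rabbit 3 was above rabbit 4 and rabbit 5 above rabbit 6 in all 4 tissues. The order of the rabbits of a group for FOS was thus shared across tissues, while the size of the gap varied.

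JUN, the other main AP-1 subunit, had its lowest levels in the intima of the ligated BT. There it was at 18.6 and 52.4 CPM in sham and at 0.518 and 1.4 CPM in ligated rabbits (6 and 17 counts). The fitted change of -5.19 on the log2 scale (SE 1.03) had a q of 0.256. DESeq2 called it (q = 2e-05), as did the fit over 16 libraries (q = 0.0231). The ligated values were also below the sham values in the other tissues, with 19.3 and 28.7 against 8.09 and 8.56 CPM in the BA intima. In the BA media JUN was at 16.4 and 9.81 CPM against 2.11 and 4.19 CPM, and in the BT media at 34.0 and 22.9 CPM against 9.35 and 11.1 CPM. None of these 3 differences passed the test (log2 change -1.52, -2.01 and -1.46, q of 0.861, 0.46 and 0.337). JUN was thus lower in both ligated rabbits in all 4 tissues, always without overlap, at levels where a medial library held as few as 4 counts. The share of all genes with this pattern was not counted.

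The remaining AP-1 genes were scarce. FOSL2 ranged from 0 to 3.74 CPM and FOSL1 from 0 to 1.37 CPM over the 16 libraries, and FOSB had 2 counts in 1 library of the BT media. FOSL1, a partner of JUN that often follows FOS with a delay, had its highest counts in the intima of ligated rabbits, 12 and 15 at the BT (1 and 4 in sham) and 0 and 8 at the BA (0 and 1 in sham). None of these was called in any tissue, and FOSB was not tested.

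ATF3, which can pair with JUN, was lower in both ligated rabbits than in both sham rabbits in all 4 tissues. In the BT media it was at 59 and 73.2 CPM in sham and 13.1 and 12 CPM in ligated rabbits (log2 change -2.39, SE 0.54, q = 0.042). It kept this call in 6 of 11 alternatives and lost it without rabbit 5 (q = 0.161), without rabbit 6 (q = 0.287), in the fit over 16 libraries (q = 0.215), by library size alone (q = 0.0584) and with filterByExpr (q = 0.0542). The BT intima held 112 and 116 CPM in sham and 37.6 and 11.7 CPM in ligated rabbits (log2 change -2.20, SE 0.66, q = 0.318, and 0.0331 in DESeq2). The BA intima held 82.1 and 24.7 CPM against 15.2 and 4.11 CPM (log2 change -2.46, SE 0.89, q = 0.759), and the BA media 25.3 and 30.9 CPM against 7.38 and 12.3 CPM (log2 change -1.48, SE 0.72, q = 0.411). The fitted change was therefore of like size in 3 tissues, with the smallest error in the BT media.

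**Figure D3:**
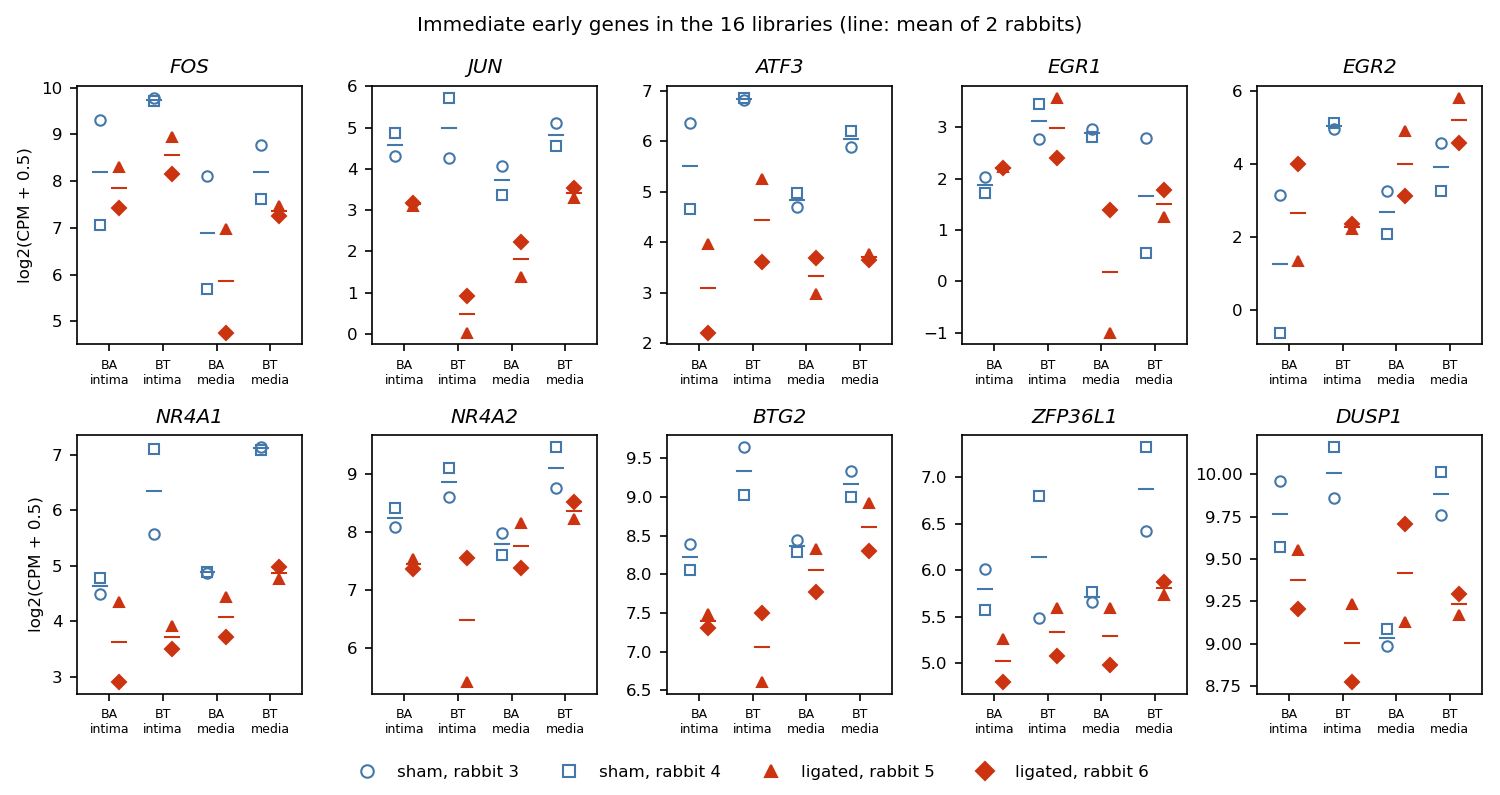
Level of 10 immediate early and feedback genes in each of the 16 libraries as log2(CPM + 0.5), by tissue, with open symbols for sham rabbits 3 and 4, filled symbols for ligated rabbits 5 and 6 and a line at each group mean. ATF3 and JUN lay lower in both ligated rabbits in all 4 tissues, and NR4A1 lay far below the sham values at the BT.

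The NR4A genes encode nuclear receptors that act without a known ligand and are induced in the same wave as FOS. NR4A1 in the BT media was at 141 and 136 CPM in sham and 26.8 and 31.2 CPM in ligated rabbits. This fall of 2.24 on the log2 scale (SE 0.41, q = 0.0159) was kept in 8 of 11 alternatives. It was lost without rabbit 5 (q = 0.0954), without rabbit 6 (q = 0.131) and in the fit over 16 libraries (q = 0.152). In the BT intima the sham rabbits were at 47 and 138 CPM and the ligated rabbits at 14.6 and 10.9 CPM (log2 change -2.85, SE 0.67, q = 0.27). At the BA the differences were smaller, with 21.9 and 27.1 against 19.8 and 7.02 CPM in the intima (log2 change -0.86, q = 0.925) and 28.7 and 29.3 against 21.1 and 12.6 CPM in the media (log2 change -0.78, q = 0.619). DESeq2 called NR4A1 in the BT intima (q = 0.00287), as did edgeR with every gene that had a count (q = 0.0138). NR4A1 was thus lower in both ligated rabbits in every tissue.

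NR4A2 had 431 and 709 CPM in sham and 299 and 365 CPM in ligated BT media (log2 change -0.77, SE 0.33, q = 0.281). In the BT intima it had 391 and 551 CPM against 42.1 and 186 CPM (log2 change -2.06, SE 0.71, q = 0.363). BA intima values were 271 and 339 against 185 and 163 CPM, while those of the BA media overlapped (253 and 195 against 283 and 166 CPM, log2 change 0.01). NR4A3 was low, at most 12.4 CPM, and its groups overlapped everywhere but in the BT intima (4.06 and 12.4 CPM in sham, 0 and 2.55 CPM in ligated rabbits, log2 change -2.69, q = 0.638). DESeq2 called NR4A2 in the BT intima (q = 0.0421). In edgeR, 1 of the 3 NR4A genes fell in the BT media and none passed in another tissue.

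EGR1 and EGR2 are zinc finger factors and among the most rapidly induced genes of VSMCs. EGR2 in the BT intima was at 30.5 and 34.1 CPM in sham and 4.15 and 4.61 CPM in ligated rabbits, the closest agreement within both groups of any tissue. This difference had a log2 change of -2.88 (SE 0.72), with a q of 0.279 in edgeR and 0.00273 in DESeq2. EGR2 in the BT media was higher on average in ligated rabbits, with 23.2 and 9.03 CPM in sham and 55.8 and 23.4 CPM in ligated rabbits (log2 change 1.31, q = 0.391). The BA media had 9.14 and 3.76 CPM against 29.5 and 8.13 CPM (log2 change 1.53, q = 0.539), and in the BA intima the sham and ligated values overlapped, with 8.34 and 0.149 CPM against 2.02 and 15.4 CPM. EGR1 ranged from 0 to 11.4 CPM, and its groups did not differ by the test in any tissue. It was at 7.26 and 6.54 CPM in sham and 0 and 2.1 CPM in ligated BA media (log2 change -2.57, SE 1.77, q = 0.552). EGR3 had counts in only 2 libraries and was not tested.

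IER3, an inducible regulator of survival signalling, was at 4.07 and 2.58 CPM in sham and 16.2 and 16 CPM in ligated BT media (log2 change 2.29, SE 0.97, q = 0.271). In the BT intima it was at 5.82 and 6.44 CPM against 13.8 and 9.63 CPM (log2 change 0.94, q = 0.74), and in the BA media at 7.82 and 11.3 CPM against 11.6 and 17.8 CPM (log2 change 0.65, q = 0.775). Only the BA intima had overlapping values, 6.14 and 9.79 against 3.09 and 8.38 CPM. MYC, a driver of growth and division, ranged from 1.74 to 15.8 CPM. Its fitted changes ran from -0.76 to 0.88 on the log2 scale, and none passed the test.

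BTG2, an antiproliferative p53 target, was at 801 and 518 CPM in sham and 97.2 and 181 CPM in ligated BT intima. The log2 change of -2.25 (SE 0.49) had a q of 0.265 in edgeR, 0.000289 in DESeq2 and 0.0231 in the fit over 16 libraries. The BA intima had 334 and 266 CPM against 179 and 158 CPM (log2 change -0.83, q = 0.861). In the media the values were nearer, with 643 and 509 against 484 and 315 CPM at the BT (log2 change -0.52, q = 0.467) and 348 and 313 against 321 and 218 CPM at the BA, where they overlapped. BTG1 and BTG3 had fitted changes from -0.09 to 1.11 on the log2 scale, and none of the BTG genes passed the test in edgeR.

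ZFP36, the decay factor of many cytokine mRNAs, was at 2.61 and 1.94 CPM in sham and 11.8 and 22.2 CPM in ligated BT media (log2 change 2.92, SE 1.01, q = 0.177), and at 4.9 and 6.38 CPM against 12.7 and 24.1 CPM in the BA media (log2 change 1.73, SE 0.89, q = 0.443). Its intimal values overlapped at both locations. ZFP36L1 was at 85.4 and 160 CPM in sham and 52.7 and 58.3 CPM in ligated BT media (log2 change -1.13, SE 0.43, q = 0.215). Without sham rabbit 3 it was called (log2 change -1.52, q = 0.0212), and without sham rabbit 4 it was not (-0.61, q = 0.552). Its BA intima values were 64.1 and 47.2 against 37.8 and 27.4 CPM. ZFP36L2 ranged from 0.645 to 12.2 CPM, and of the 3 genes none was called in any tissue.

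DUSP1, the first MAPK phosphatase to be induced in most cells, was read at high depth in every library. It was at 927 and 1144 CPM in sham and 602 and 438 CPM in ligated BT intima (log2 change -0.99, SE 0.41, q = 0.428), and at 865 and 1032 CPM against 576 and 628 CPM in the BT media (log2 change -0.65, SE 0.29, q = 0.307). In the BA media the ligated rabbits were the higher ones, with 507 and 543 CPM in sham and 559 and 836 CPM in ligated rabbits (log2 change 0.43, q = 0.57). The BA intima had 995 and 760 CPM against 751 and 589 CPM, without overlap but close. DUSP1 was thus lower after ligation at the BT and not in the BA media, and none of these differences passed the test.

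DUSP5, a nuclear phosphatase of ERK, was read almost only in ligated animals outside the BT intima. In the BT media it had 1 and 0 counts in sham and 47 and 66 counts in ligated rabbits. The pooled counts gave a ratio of 92.6 (95% counting interval 16.3 to 3689, without the spread between rabbits). The ratio was 16.5 with the sham group set at 3 counts per library. DUSP5 passed the filter there only through the ligated group (mean of 11.2 against 0.145 CPM), so its q is no support for a difference. The q was 0.0988 in edgeR and 0.0138 in DESeq2. With 1 rabbit left out the fitted log2 change ran from 5.16 to 9.06. In the BA intima it had no count in either sham library and 54 and 10 counts in ligated rabbits (5.75 and 1.71 CPM). With the sham group set at 3 counts per library, the ligated mean was at least 19-fold higher, mostly through rabbit 5. Here too DUSP5 passed the filter only through the ligated group (q = 0.797). In the BT intima sham rabbit 3 had 33 counts and sham rabbit 4 had 0, against 43 and 2 in ligated rabbits, so the groups overlapped. The BA media had 1 count in ligated rabbit 5 and 0 in the others.

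Other phosphatases of this class gave fewer counts or smaller differences. DUSP7, which acts on ERK in the cytoplasm, was higher in both ligated rabbits in all 4 tissues. It was at 15.2 and 25.5 CPM in sham and 79 and 53.2 CPM in ligated BT intima (log2 change 1.71, SE 0.55, q = 0.341) and at 14 and 20.4 CPM against 36.2 and 53.2 CPM in the BA intima (log2 change 1.38, q = 0.849). In the media it was at 14.7 and 26.5 against 39 and 32.5 CPM at the BA and 17.4 and 17.4 against 23.7 and 48.7 CPM at the BT. DUSP4 ranged from 0.374 to 13.8 CPM with overlap in the intima. DUSP6, another phosphatase of ERK, was read in 7 of 8 intimal and in 2 of 8 medial libraries. DUSP2, an inducible nuclear phosphatase, had 88 counts in 1 ligated BT media library and 3 in the other. In none of the 4 tissues did a MAPK phosphatase pass the test in edgeR, and DESeq2 called DUSP5 alone, in the BT media.

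DUSP22, a small phosphatase outside the MAPK phosphatase class, had the largest positive intimal differences among genes with a count in every library. Sham BT intima had 12 and 6.3 CPM and ligated BT intima 66.1 and 50.1 CPM (log2 change 2.67, SE 0.61). The q was 0.265 in edgeR and 0.00458 in DESeq2. In the BA intima it was at 7.78 and 8.67 CPM against 25.2 and 37.1 CPM (log2 change 1.92, SE 0.75, q = 0.806). In the BA media the values overlapped (8.11 and 5.56 against 12.7 and 4.46 CPM), and in the BT media they were 10.2 and 0.484 against 12.5 and 14.1 CPM. DUSP13 had all of its 41 counts in the BA media of sham rabbit 3.

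Among the KLFs, zinc finger factors that bind GC-rich promoter elements, 12 genes had a count and none passed the test in edgeR with ligation in any tissue. KLF10, induced by TGF-beta, came nearest. It was at 161 and 128 CPM in sham and 464 and 334 CPM in ligated BA media (log2 change 1.48, SE 0.34, q = 0.105), and DESeq2 called it (q = 0.00143). In the other 3 tissues its sham values enclosed the ligated ones: 171 and 438 against 332 and 247 CPM in the BA intima, 183 and 439 against 343 and 288 CPM in the BT intima, and 203 and 423 against 336 and 328 CPM in the BT media. KLF10 was higher in sham rabbit 4 than in sham rabbit 3 in those 3 tissues.

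KLF6, which is induced on vascular injury, was at 29.3 and 23.5 CPM in sham and 47.7 and 35.3 CPM in ligated BT media (log2 change 0.66, q = 0.596) and overlapped in the other tissues. KLF11, a relative of KLF10, was at 30.2 and 22.1 CPM against 10.3 and 9.47 CPM in the BT media (log2 change -1.39, SE 0.71, q = 0.37) and at 16.9 and 49.5 CPM against 6.71 and 14 CPM in the BA intima (log2 change -1.67, SE 0.83, q = 0.856). KLF12, a repressor, was at 13.6 and 7.52 CPM against 3.69 and 3.41 CPM in the BA media (log2 change -1.56, q = 0.566). KLF5, tied to VSMC proliferation, ranged from 0 to 5.64 CPM and KLF9, a glucocorticoid target, from 0 to 4.36 CPM. KLF15 had 25 of its counts in 1 sham BA media library. KLF1, the erythroid factor, reached 1.27 CPM at most, in the BA intima of sham rabbit 4.

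**Figure D4:**
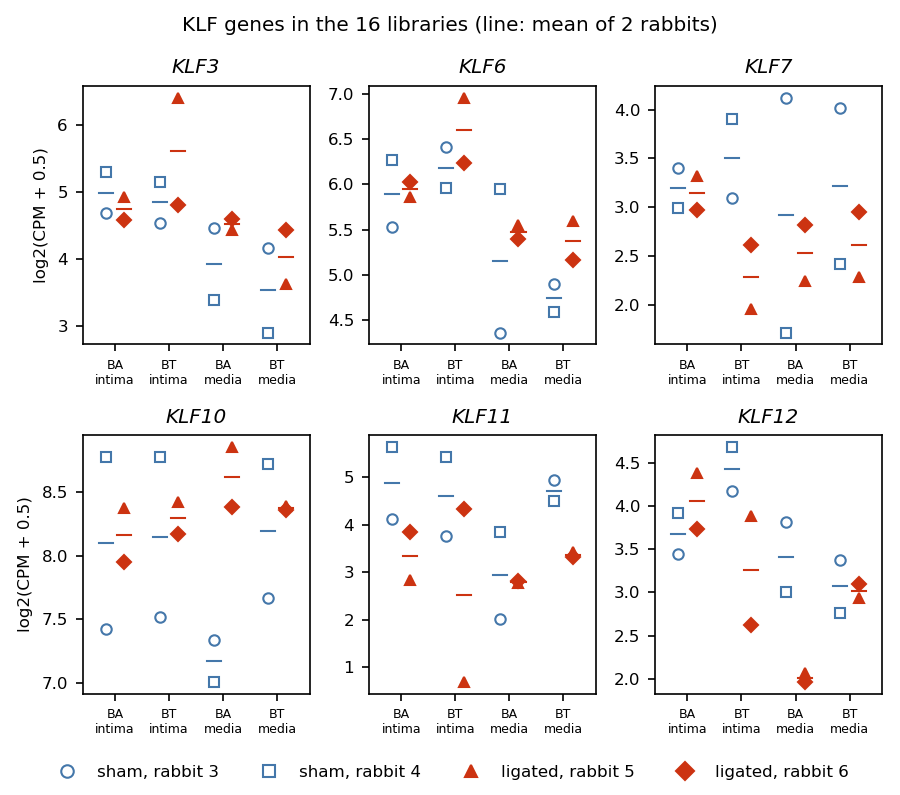
Level of the 6 KLF genes with the same layout as for the immediate early genes, as log2(CPM + 0.5) in each of the 16 libraries, with open symbols for sham, filled symbols for ligated rabbits and a line at each group mean. KLF10 lay higher in both ligated rabbits only in the BA media, and KLF6 lay higher in the intima than in the media of the same artery.

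Genes that lie upstream of this group were examined as a list of 33 regulators (SRF, the ternary complex factors, CREB, MEF2 and MAPK pathway genes), of which 29 had a count. In the BT media 3 of 26 tested regulators were called (2.35% of all genes were): MAP2K3, the kinase of p38 (log2 change 3.54, SE 0.58, q = 0.00881), and MAP2K1, the kinase of ERK (3.94, SE 0.83, q = 0.033), rose, and MEF2C, a muscle transcription factor, fell by 1.57 (SE 0.31, q = 0.0263). MAP2K1 was at 4.07 and 1.45 CPM in sham and 25.9 and 56.2 CPM in ligated BT media. None was called in the other tissues, where 27 or 28 were tested. In the BT media MEF2C was at 492 and 574 CPM in sham and 197 and 161 CPM in ligated rabbits. The median log2 change of the list in the BT media was 0.25 (all genes, 0.03).

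Of 40 further early response genes, 32 had a count. Of 29 tested in the BT media 4 were called (2.35% of all genes were), with increases of PLAUR, the urokinase receptor (log2 change 5.63, SE 0.84, q = 0.00557), and IL6 (6.58, SE 1.01, q = 0.00676) and decreases of RND3, a small GTPase (-2.54, SE 0.33, q = 0.0024), and CYR61, a matricellular YAP target (-1.47, SE 0.33, q = 0.0422). IL6, a cytokine with an AU-rich mRNA, was at 2.61 and 0 CPM in sham and 85.1 and 127 CPM in ligated BT media. PLAUR was at 0.29 and 2.58 CPM against 52 and 106 CPM there. The fold changes of IL6 and PLAUR thus rest on sham levels of few counts. RND3 also fell in the BA media (-2.29, SE 0.31, q = 0.0219), from 689 and 713 CPM in sham to 131 and 153 CPM in ligated rabbits. In both intimal tissues edgeR called none of 29. Among the endothelial targets of KLF2 and KLF4, 15 of 20 had a count and edgeR called none of the 13 or 14 tested in any tissue. Their median log2 change was 0.04 for BA intima (all genes, -0.10), 0.70 for BT intima (-0.13), 0.77 for BA media (-0.15) and 0.98 for BT media (0.03). The list was not split by the direction in which KLF2 and KLF4 act on each gene. These medians therefore do not measure the activity of the 2 factors.

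Whether the change with ligation differed between locations was tested as an interaction in each layer. In the intima no gene of the group was called by edgeR or DESeq2 out of 42 (0% and 0.488% of all genes). At an unadjusted p below 0.05 there were 3 (3.12% of all genes). JUN and BTG2 had a more negative change at the BT (differences in log2 change of -3.69, SE 1.19, and -1.44, SE 0.60). KLF8 went in the other direction, from at most 7.52 CPM, and passed the filter only through ligated BT intima. Over all genes at that p, 235 differences were negative and 66 positive. In the media none of 42 was called by either tool (0.0213% of all genes by edgeR), and 3 had an unadjusted p below 0.05 (6.43% of all genes): KLF10 (-1.40, SE 0.52, q = 0.722), DUSP1 (-1.08, SE 0.41, q = 0.734) and NR4A1 (-1.46, SE 0.66, q = 0.772). The call of NR4A1 in the BT media and its absence in the BA media were thus not shown to differ.

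The corresponding test between layers gave no call by edgeR either. At the BT, 0 of 41 were called (0% of all genes) and 4 had an unadjusted p below 0.05 (5.92% of all genes), all with a more negative change in the intima: EGR2 (difference in log2 change of -4.20, SE 1.01, q = 0.486), JUN (-3.74, SE 1.13, q = 0.639), BTG2 (-1.74, SE 0.58, q = 0.732) and ZFP36 (-3.14, SE 1.24, q = 0.789). Over all genes at that p, 425 had a more negative and 145 a more positive change in the intima. DESeq2 called EGR2 (q = 0.0159) and 0.831% of all genes. The intimal values of EGR2 were lower and its medial values higher on average in ligated rabbits. At the BA, 0 of 43 were called by either tool (0% of all genes by edgeR) and 1, KLF10, had an unadjusted p below 0.05 (2.65% of all genes; difference of -1.58, SE 0.66).

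Intima and media were compared over all 16 libraries. Of the 50 genes 44 were tested, and 2 were higher in the intima at q below 0.05, KLF6 and DUSP6 (4.55%, against 7.17% of all genes tested). At an unadjusted p below 0.05 there were 10 (22.7%, against 20.8% of all genes), 8 higher in the intima and 2 higher in the media. The median log2 ratio of intima to media was 0.24 (all genes, 0.09). In the same comparison 8 of 13 endothelial markers were higher in the intima and 10 of 13 contractile genes higher in the media. Contractile genes were still abundant in the intima, at 24509 CPM or more when summed.

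KLF6 ranged from 45.5 to 124 CPM in the 8 intimal libraries (median 70 CPM) and from 20 to 61.2 CPM in the 8 medial libraries (median 38.5 CPM). In all 8 pairs of layers from 1 rabbit and location the intima was the higher one, by 1.24 to 2.89 times. Its log2 ratio was 0.95 (SE 0.27, q = 0.0442), and 0.98 (q = 0.0148) with rabbit and location as a block. The 8 pairs came from only 4 rabbits. Both fits counted the BA and BT of the same rabbit as independent, so neither q takes the rabbit as the unit. Without any 1 of the 4 rabbits the main fit did not call KLF6 (q of 0.0547 to 0.232). DUSP6 had 268 counts in the intima and 10 in the media, the latter all from the ligated BT (7 and 3 counts). Its fitted ratio depended on the groups at 0, its mean level was 3.3 CPM in the intima and 0.317 CPM in the media, and its call was lost with the block (q = 0.119) and without any 1 of the rabbits (q of 0.136 to 1).

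FOS was likewise higher in the intima in 8 of 8 pairs, by 1.87 to 6.48 times. It ranged from 133 to 880 CPM in the intima (median 404 CPM) and from 26.5 to 435 CPM in the media (median 163 CPM). Its log2 ratio of 1.40 (SE 0.41) lay at the threshold without passing it (q = 0.05), and with the block it was 1.50 and was called (SE 0.20, q = 0.001). Here too the BA and BT pairs of the same rabbit were counted as independent. BTG1, KLF3, MYC and DUSP22 had the higher intimal level in 7 of 8 pairs, with log2 ratios of 1.13, 1.06, 0.95 and 1.27 and q of 0.0773, 0.0789, 0.323 and 0.134. NR4A1, ZFP36L1 and DUSP26 were lower in the intima in 7 of 8 pairs, with log2 ratios of -0.58, -0.32 and -2.10. BTG2, lower in 6 of 8 pairs, had a log2 ratio of -0.53 (SE 0.19, q = 0.109). How often all genes agreed in direction over the 8 pairs was not counted. KLF12 had a log2 ratio of 1.07 (SE 0.41, q = 0.144), and of the 10 KLFs tested 8 had a log2 ratio above 0 and 1 was called.

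Several early response genes outside the group were also higher in the intima. Of 31 tested, 5 were called (7.17% of all genes were), all higher. Among them were PTGS2, the inducible cyclooxygenase (log2 ratio 2.88, SE 0.49, q = 0.00365), and SGK1, a serum-induced kinase (1.79, SE 0.23, q = 0.00105). The others were NFKBIA, an inhibitor of NF-kappaB (0.94), NFKBIZ (1.17) and ID3 (0.82). Of 28 regulators 2 were called, a share like that of all genes. MAPK8, the kinase JNK1, was higher (1.07, q = 0.0488) and MAPK7, the kinase ERK5, lower (-1.18, q = 0.0221) in the intima. Of 14 KLF2 and KLF4 targets, not split by direction of regulation, 5 were higher in the intima (TEK, ASS1, NOS3, VCAM1 and ITPR3). Of the same 14, 2 were lower (NOV and CAV1), and TEK also stood among the endothelial markers.

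**Figure D5:**
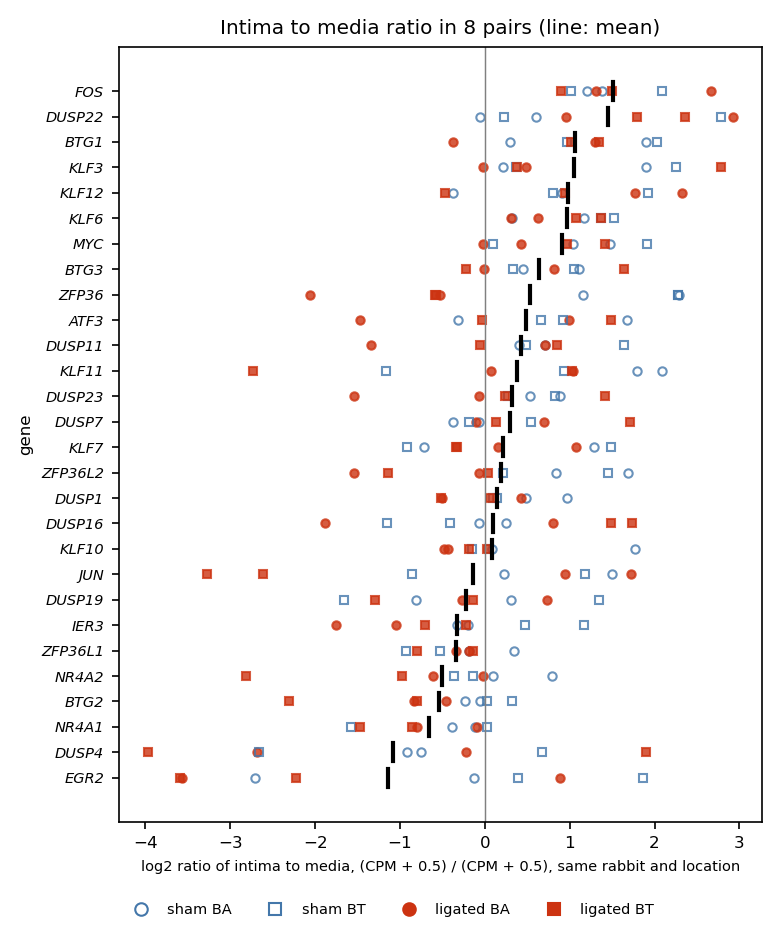
Log2 ratio of intima to media, with 0.5 CPM added to each, in 8 pairs from the same rabbit and location, for the 28 genes with a count in all 16 libraries; open symbols are sham and filled symbols ligated pairs, circles BA and squares BT, and the black line is the mean. Only FOS and KLF6 had all 8 ratios above 0.

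The BT was compared with the BA within each layer. In the media 7 of 42 tested genes had an unadjusted p below 0.05 (16.7%, against 5.03% of all genes), all higher at the BT. None passed the test in edgeR (0.0320% of all genes did), and DESeq2 called 1, NR4A1 (0.310% of all genes). The 7 were NR4A1 (log2 ratio of BT to BA 1.52, SE 0.34, q = 0.226), NR4A2 (0.95, SE 0.25, q = 0.5), BTG2 (0.68, SE 0.23, q = 0.845), ZFP36L1 (0.86, SE 0.32, q = 0.919), JUN (1.38, SE 0.61, q = 0.967), FOS (1.03, SE 0.48, q = 0.967) and DUSP5. DUSP5 passed the filter only through ligated BT media, at a mean of 11.2 CPM against at most 0.264 CPM in the other medial groups. Its place among the 7 is therefore no support for a difference. With rabbit as a block 3 were called: FOS (1.38, q = 0.0119), NR4A1 (1.54, q = 0.0175) and NR4A2 (0.96, q = 0.0265). Over all genes the block raised the calls from 3 to 52 (0.555%), of which 25 were higher at the BT.

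Each of these medial genes other than DUSP5 was higher at the BT in all 4 rabbits. FOS was 1.39 to 5.7 times, JUN 2.07 to 4.43 times, NR4A1 1.27 to 4.91 times and BTG2 1.45 to 1.85 times the level in the BA media of the same rabbit. EGR2, KLF11 and DUSP12 were also higher at the BT in the media of 4 of 4 rabbits. BTG1, KLF3, ZFP36 and DUSP14 were lower there in 4 of 4. How often all genes agreed in direction in 4 of 4 rabbits was not counted for either layer. Such agreement in a single gene therefore carries little weight. NR4A1 in the media was at 28.7 and 29.3 CPM at the BA and 141 and 136 CPM at the BT in sham rabbits. In ligated rabbits it was at 21.1 and 12.6 CPM against 26.8 and 31.2 CPM. In the intima 2 of 42 genes had an unadjusted p below 0.05 (4.76%, against 3.09% of all genes), KLF8 and DUSP2, both with few counts, and none was called by edgeR or DESeq2 (0% of all genes by edgeR). KLF8 passed the filter only through ligated BT intima (mean of 4.79 CPM), so its p is no support for a difference. FOS, ATF3, EGR1 and KLF10 were higher at the BT in the intima of 4 of 4 rabbits, KLF10 by at most 1.17 times.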

How the data were processed

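RNA-seq counts of 16 libraries were analysed. The authors used the SMART-Seq v4 kit and Nextera library preparation, aligned single reads to oryCun2 with STAR, kept unique reads and counted them with featureCounts 1.6.2 on Ensembl OryCun2.0 genes, in 1 strand orientation. The deposited values are raw counts per symbol, with no normalization. The kits do not mark strand, so a gene and an antisense partner cannot be told apart. The entry with no symbol (13.8% to 18.69% of the counts) was left out, and 22 symbols turned into dates were kept unmapped. No sample column was unused (0). On the RefSeq assembly mOryCun1.1, 48 of the 50 symbols were found, 15 of them overlapped another gene model and 3 (FOSB, FOSL1 and KLF12) a coding model, so their counts are less certain.

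Differential expression was tested with edgeR 4.0.16 (R 4.3.3), TMM scaling, quasi-likelihood fits (legacy form) and two-sided F tests, adjusted over all genes with a mean above 1 CPM in at least 1 group, in place of the authors' RPKM limit. SEs are log2 changes divided by the root of F. Alternatives were DESeq2 1.42.0, library size or RLE scaling, every gene with a count, filterByExpr, the newer edgeR form, each rabbit left out, a fit over all libraries (flow) and a replicate block (layers, locations and interactions). The tests were run on simulated counts with known changes, drawn independently for each library. Those counts held no effect of a shared rabbit, so they cannot check the comparisons in which libraries share rabbits. Counts of 0 were read as up to 3 counts per library, and intervals cover counting error only. The replicates of a group differed by 18.6 to 414 in chi-square per degree of freedom, well beyond counting error.

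BA, BT, intima and media of the same number came from the same rabbit, and the deviations of such pairs correlated by 0.06 to 0.39 between locations and by -0.03 to 0.20 between layers. The fits without the block are the main ones. Ligated and sham rabbits were different animals, and no pairing applied to them. The genes, classes and lists were chosen with earlier results of these data known. Any gene of the group could be named: all past q 0.05, the 3 with the smallest p in each direction in each comparison, and a fixed set in the comparisons of flow. Of the other lists, genes past q 0.05 were named, other than results not reported here.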

Additional observations from a re-analysis of the deposited data

How the results depend on the processing

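No result changed direction together with a call under any alternative. Genes of the group past q 0.05 in the BT intima numbered 0 in the main fit, 4 with every gene that had a count, 7 with DESeq2 and 2 in the fit over 16 libraries. In the BA media they numbered 0 and then 1 with every gene that had a count and 1 with DESeq2. In the BT media they numbered 2 and then 1 by library size alone, 1 with filterByExpr, 0 in the fit over 16 libraries, and 0 to 6 with a rabbit left out. Between layers they numbered 2 and then 5 by library size alone, 4 with every gene that had a count, 7 with DESeq2, and 0 to 3 with a rabbit left out. KLF6 lost its call without any 1 of the rabbits (q of 0.0547 to 0.232). Between locations in the media they numbered 0 and then 3 with every gene that had a count, 1 with DESeq2, 3 with the replicate block, and 0 to 1 with a rabbit left out. The difference between layers in the change at the BT had 0 and then 1 with every gene that had a count and 1 with DESeq2. The block changed no other count of this group by over 1.5 times, although it exchanged DUSP6 for FOS between layers. The cause of these shifts was not tested.

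Counts over all genes varied widely: 0 in the BA intima (0 to 126 with a rabbit left out), 0 in the BT intima (0 to 116), 71 in the BA media (0 to 0) and 206 in the BT media (38 to 645), and 723 between layers (194 to 673), and from 0 to 123, 0 to 613, 7 to 508, 19 to 594 and 709 to 1332 under the other alternatives. Scaling by library size alone moved the median log2 ratio of all genes between layers from 0.09 to 0.31. With 2 rabbits in a group, a rabbit left out leaves 1, which is assumed to vary like the other group. Genes below about 1 CPM rest on few counts, since 3 counts amount to up to 1.58 CPM in the shallowest library.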
